A study of Mus musculus with 4 samples.

Results

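The 9 genes described here encode transcription factors, some of which a cell switches on first when serum or a growth factor reaches it. They are Fos, Fosb, Fosl1 and Fosl2, which make the Fos proteins, Jun, Junb and Jund, which make the Jun proteins, and Egr1 and Myc. They were taken by symbol, and each symbol had exactly 1 entry in every table, so the set is 9 of the 24850 entries with a gene symbol in the total RNA-seq tables and 9 of 24992 in the polyA RNA-seq tables. The measurements come from C2C12, an established mouse myoblast line whose cells fuse into multinucleated myotubes after confluent cultures are moved from serum-rich growth medium to low-serum differentiation medium (DM). Myoblasts (MB) were sampled at DM -24 h, that is, still in growth medium, and myotubes (MT) at DM 72 h, and RNA depleted of rRNA was sequenced from both. MT that had received siRNA against hnRNPL (si-hnRNPL) or a control siRNA (si-NC) were sampled at DM 48 h, and polyA RNA was sequenced from both. hnRNPL is an RNA-binding protein of the nucleus. Each of these 4 conditions had 1 library, so differences could not be set against a spread between cultures and p-values were not computed. Levels are FPKM, fragment numbers scaled by transcript length and library size, with the 95% interval deposited beside each, which reflects counting and read assignment in that library and no variation between cultures.

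A Fos protein pairs with a Jun protein through a leucine zipper to form AP-1, a dimer that binds a short palindromic DNA site, whereas Fos proteins cannot pair with one another. Transcription of Fos, Fosb, Junb and Egr1 follows activation of MAP kinases and of SRF, the serum response factor, and these transcripts are short-lived, whereas Fosl1 is known to follow later as a target of AP-1 itself. Fosl1 and Fosl2 lack the strong activation domain of Fos and Fosb, and JunD has been described as made more steadily than c-Jun and JunB. Egr1 is a zinc finger protein, and Myc pairs with Max to bind the E-box. In myoblasts AP-1 and Myc are known for their link to proliferation, and both c-Jun and Myc have been described as opposing the myogenic factors when forced on.

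The labels were checked on genes outside the set. Myog, the myogenic regulator of fusion-competent cells, stood at 0.695 FPKM in MB and at 251 in MT, and Ckm, the muscle creatine kinase, at 0.0096 and 66.3. Mki67, a marker of cycling cells, was 62.2 FPKM in MB and 15.6 in MT. Hnrnpl itself was 111 FPKM in MB, 63.0 in MT, 95.1 (92.7 to 97.5) in si-NC and, in si-hnRNPL, 85.9 (83.1 to 88.7), a log2 difference of -0.14 between the siRNA libraries. The 8 marker genes of blood, endothelial, fat, Schwann, epithelial and liver cells reached at most 1.13 FPKM in any library. The interval widths correspond to 59960176 fragments in MB, 54442423 in MT, 21341051 in si-NC and 14592480 in the si-hnRNPL library. All 9 genes had the status OK in every library.

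The bases before the start sites are shown for the members whose promoters held a searched motif. Promoters of 6 of the 9 genes were read from the RefSeq table, on build GRCm38.p6, which is not the build of the expression files. The 250 bases before each start were searched on both strands, and the 130 nearest the start are printed, 5′ to 3′ in the direction of transcription, with matches in capitals. Fos lies on the plus strand (chr12:85473760-85473889), Fosb on the minus strand (chr7:19310046-19310175), Fosl2 on the plus strand (chr5:32136342-32136471) and Jun on the minus strand (chr4:95052223-95052352).
Fos: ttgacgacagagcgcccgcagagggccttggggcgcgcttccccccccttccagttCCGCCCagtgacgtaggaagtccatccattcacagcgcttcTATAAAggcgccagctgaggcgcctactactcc
Fosb: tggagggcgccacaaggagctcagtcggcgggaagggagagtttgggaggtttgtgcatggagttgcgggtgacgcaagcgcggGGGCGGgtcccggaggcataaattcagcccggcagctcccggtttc
Fosl2: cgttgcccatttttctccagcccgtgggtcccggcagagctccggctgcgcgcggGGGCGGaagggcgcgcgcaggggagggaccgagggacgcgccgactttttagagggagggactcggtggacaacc
Jun: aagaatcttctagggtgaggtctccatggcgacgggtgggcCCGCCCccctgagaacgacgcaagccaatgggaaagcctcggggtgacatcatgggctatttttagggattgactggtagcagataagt
The capitals mark TATAAA in Fos, 33 to 28 bases before the start, and GGGCGG or its reverse complement CCGCCC in each of the 4. GGGCGG lay 74 to 69 bases before the start in Fos, 46 to 41 in Fosb with a further overlapping pair between 235 and 225, 75 to 70 in Fosl2 and 89 to 84 in Jun. Of all 32851 promoters in that table, 32.7% held GGGCGG and 12.4% held TATAAA, so the first is a common feature. The CArG box bound by SRF (1.47% of all promoters), the AP-1 site TGANTCA (6.75%), the CRE TGACGTCA (1.55%) and the E-box CACGTG (6.02%) had no match in the 250 bases of any of the 6, and Junb and Jund held none of the 6 motifs. Only exact matches were sought. Variant sites, and sites further than 250 bases before the start, were not searched, so these promoters are not shown to lack such elements.

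Fos is the founding member of its family and lies at chr12:86814840-86818223 in mm9, with up to 4 exons. Its level was 2.05 FPKM (1.83 to 2.28) in MB, 2.58 (2.33 to 2.83) in MT, 2.27 (1.90 to 2.64) in si-NC, and in si-hnRNPL it was 2.07 (1.62 to 2.51). All 4 values fell within a narrow and low range, with 41.0% to 41.8% of named genes above Fos in each library.

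Fosb (chr7:19888070-19895394, minus strand) encodes FosB and, by splicing, a shorter form that the gene-level values do not separate. It was the lowest of the 9 everywhere, at 0.280 FPKM (0.219 to 0.341) in MB, 0.127 (0.0871 to 0.168) in MT, 0.251 (0.156 to 0.346) in si-NC, and in si-hnRNPL it was 0.319 (0.187 to 0.450). These values rest on 84, 40, 28 and 23.4 fragments as implied by the intervals, the thinnest support of any member.

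Fosl1 (chr19:5447703-5455945, plus strand, 4 exons) encodes Fra-1, a Fos protein without a strong activation domain. The MB library had 38.3 FPKM (37.2 to 39.4), against 2.36 (2.096 to 2.63) in MT, 2.96 (2.46 to 3.46) in si-NC, and in si-hnRNPL it was 2.95 (2.34 to 3.57). MB and MT, both from total RNA, had no overlap of intervals, and the implied fragments were 4908 in MB and 317 in MT. The siRNA libraries differ from MB in more than differentiation, so no difference is read from them. The end of Fosl1 overlaps Ccdc85b on the opposite strand, and 1162 of the 1707 exon bases of Fosl1 lie within the Ccdc85b locus. Ccdc85b was 4.07 FPKM in MB, 2.18 in MT, 5.10 in si-NC and 5.70 in si-hnRNPL. The total RNA libraries were strand-specific, but the setting used for counting is not given in the sources used here, so reads of the shared stretch cannot be told apart. Their part in the Fosl1 values, and in the family shares below, was not tested.

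Fosl2 (chr5:32438845-32460204, plus strand, 4 exons) encodes Fra-2, the other Fos protein of that kind. It was at 17.0 FPKM (16.7 to 17.4) in MB, 18.4 (18.0 to 18.8) in MT, 30.3 (29.5 to 31.1) in si-NC, and in si-hnRNPL it was 27.4 (26.5 to 28.3). Fosl2 was thus present in all 4 libraries and was the most abundant Fos gene in each of the MT libraries.

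Jun (chr4:94715725-94718913, minus strand), the gene of c-Jun, lies within 1 unbroken stretch when the exons of its transcripts are merged. It measured 35.4 FPKM (34.6 to 36.1) in MB, 34.2 (33.5 to 34.9) in MT, 60.5 (58.9 to 62.0) in si-NC, and in si-hnRNPL it was 53.4 (51.6 to 55.2). The intervals of MB and MT overlapped.

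Junb (chr8:87500811-87502617, minus strand) encodes JunB and was the most abundant of the 9 in every library. Its level was 79.3 FPKM (77.8 to 80.8) in MB, 67.1 (65.7 to 68.4) in MT, 69.9 (67.7 to 72.2) in si-NC, and in si-hnRNPL it was 80.1 (77.2 to 83.1). Only 3.39% to 4.55% of named genes lay above it.

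Jund (chr8:73221638-73224515, plus strand) encodes the Jun protein JunD. It read 22.3 FPKM (21.6 to 22.9) in MB, 28.3 (27.6 to 29.0) in MT, 18.9 (18.0 to 19.8) in si-NC, and in si-hnRNPL it was 24.98 (23.7 to 26.3). Junb was annotated with 1 exon only, a structure shared by 9.85% of 19292 protein-coding genes, and the merged exons of Jund, like those of Jun, left no gap. GC content was 62.7% in Jund and in Junb, against a median of 49.2% over those genes.

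Egr1 encodes a zinc finger activator that recruits the corepressors Nab1 and Nab2 as its own brake. It was measured at 8.25 FPKM (7.88 to 8.62) in MB and 8.15 (7.79 to 8.51) in MT, which do not separate, and at 30.3 (29.2 to 31.4) in si-NC, and in si-hnRNPL it was 27.8 (26.5 to 29.1). The polyA pair was above the total RNA pair, but these differ in siRNA transfection, RNA selection, kit, sequencer and hour of DM, which cannot be told apart. No fold change was therefore computed across the pairs for any gene.

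Myc (chr15:61816946-61821929, plus strand) encodes the E-box factor that drives ribosome and nucleotide production. Its level was 29.4 FPKM (28.6 to 30.2) in MB, 9.10 (8.62 to 9.58) in MT, 16.8 (15.7 to 17.9) in si-NC, and in si-hnRNPL it was 14.9 (13.7 to 16.1). MB was above MT, with no overlap of intervals. The siRNA libraries are not set against MB, because they differ in RNA selection as well. Annotated genes also overlap Jun (BC042782), Jund (Gm11175) and Egr1 (Gm17507) on the opposite strand, none of which had an entry of its own.

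**Figure D1:**
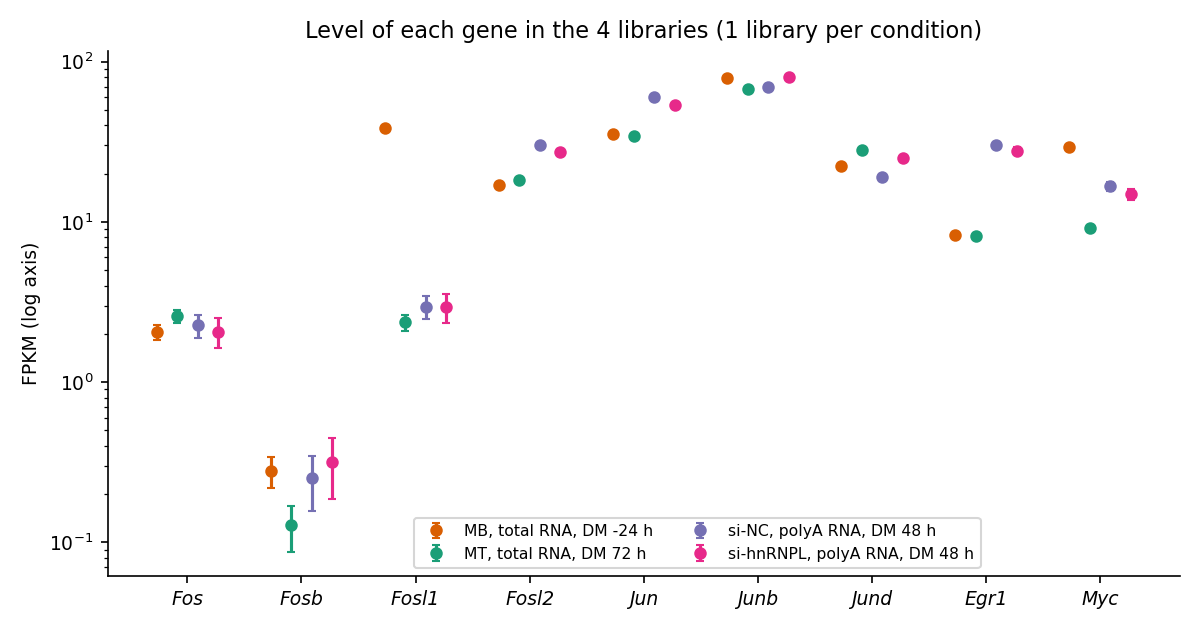
FPKM of the 9 genes on a log axis, 1 point per library in 4 colors, with bars for the deposited 95% intervals. Fosl1 and Myc have an MB point well above the point of MT total RNA (38.3 against 2.36 FPKM, and 29.4 against 9.10), while Fosb lies under 1 FPKM in all 4 libraries.

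Because FPKM is per length, the genes could be ordered within a library. In MB the order was Junb, Fosl1, Jun, Myc, Jund, Fosl2, Egr1, Fos and Fosb, and no neighbors had overlapping intervals. In MT the order was Junb, Jun, Jund, Fosl2, Myc, Egr1, Fos, Fosl1 and Fosb, where Fos and Fosl1 did not differ beyond their intervals. Fosl1 thus stood second of 9 in MB and eighth in MT. In si-NC the order ran Junb, Jun, Fosl2, Egr1, Jund, Myc, Fosl1, Fos and Fosb, with Fosl2 and Egr1 at the same level (30.3 FPKM each) and with overlap between Fosl1 and Fos. The order in si-hnRNPL was the same except that Egr1 and Fosl2 changed places, and their intervals overlapped there as well.

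The make-up of the Fos family differed between MB and MT, and a share of a family does not depend on how libraries are scaled. Fosl1 made up 66.4% (65.6 to 67.2) of the summed FPKM of the 4 Fos genes in MB and 10.1% (9.03 to 11.1) in MT. Fosl2 made up 29.5% (28.8 to 30.3) in MB and 78.4% (77.1 to 79.7) in MT. The leading Fos gene was therefore Fosl1 in MB and Fosl2 in MT. Fos itself had 3.56% in MB and 11.0% in MT, and Fosb had 0.486% and 0.543%. The siRNA libraries, which are also MT, had Fosl2 at 84.7% (83.2 to 86.2) for si-NC and 83.7% (81.7 to 85.7) for si-hnRNPL, and Fosl1 at 8.27% and 9.02%, with overlapping intervals for both genes.

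The Jun family kept one leader. Junb made up 57.9% of the summed FPKM of the 3 Jun genes in MB, 51.8% in MT, 46.8% in si-NC and 50.5% in si-hnRNPL. Jun had 25.8% in MB, 26.4% in MT, 40.5% in si-NC and 33.7% in si-hnRNPL, and the last pair did not overlap (39.6 to 41.4 and 32.7 to 34.7). Jund had 16.3%, 21.8%, 12.7% and 15.8% in the same order. In each pair of libraries the share of Jund was thus higher in the second, by more than the intervals. The shares in the siRNA pair were not corrected for its trend with exon length and GC content, which is given below.

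**Figure D2:**
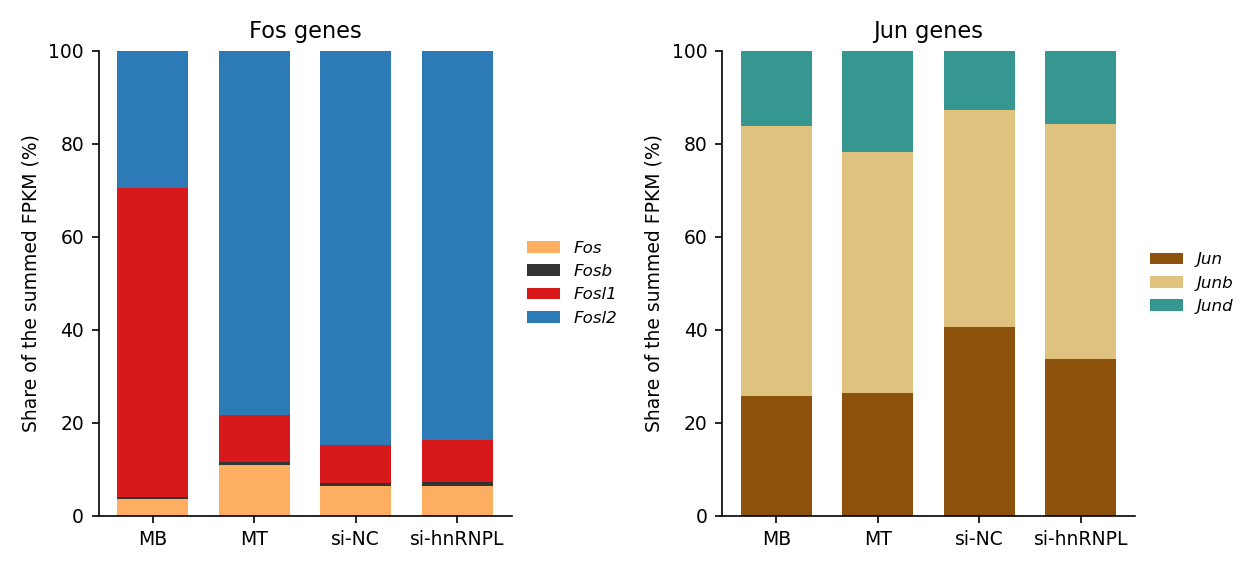
Stacked bars of each gene's share (%) of the summed FPKM of the 4 Fos genes (left) and of the 3 Jun genes (right), with 1 bar per library. Fosl1 fills 66.4% of the Fos bar in MB and 8.27% to 10.1% in the 3 MT libraries, where Fosl2 fills 78.4% to 84.7%. The siRNA libraries also differ from MB in RNA selection.

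The ratio of summed Jun to summed Fos FPKM, also free of scaling, was 2.37 in MB, 5.53 in MT, 4.17 in si-NC and 4.84 in si-hnRNPL. The sum over the Fos genes was 57.7 FPKM (56.5 to 58.9) in MB and 23.5 (22.9 to 24.0) in MT, a ratio of 0.406 that stayed under 1 in every scaling tried (up to 0.784). The sum over the Jun genes was 137 FPKM in MB and 130 in MT, a ratio of 0.946 as deposited that turned to 1.11 to 1.82 under the other scalings, so no direction is given for it.

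The comparison of MT with MB asks how the genes differ between proliferating and differentiated cells. A log2((FPKM + 1) ratio), which understates the change of low genes, was called at an absolute value of 0.58 or more, the study's 1.5-fold threshold. Of the 9 genes, 2 were lower in MT (Fosl1 and Myc), 0 were higher and 7 were neither. For comparison, 28.5% of the 11758 named genes that reached 1 FPKM in 1 or both libraries were lower and 15.4% were higher, and 8 of the 9 members met that minimum. A share of 2 in 9 lower genes is near this background and is not read as a result about the set. Fewer cells of a kind and less RNA per cell cannot be told apart in these bulk libraries.

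Fosl1 fell by 3.55 on the log2 scale (interval of the change, -3.67 to -3.43), a 16.2-fold lower FPKM (14.5 to 18.2). Only 19 of the 11758 genes, or 0.16%, had a lower log2 change. Myc fell by 1.59 (-1.67 to -1.51), a 3.23-fold lower FPKM (3.04 to 3.43), and 5.15% of genes had a lower log2 change. Both falls were called under all 8 settings, the deposited one included, with log2 changes from -4.02 to -2.82 for Fosl1 and from -1.69 to -0.71 for Myc. The 5 proliferation markers checked (Mki67, Top2a, Ccnb1, Cdk1 and Pcna) were all lower in MT too, with log2 changes from -3.08 to -1.70, and their part in the changes of Fosl1 and Myc was not tested.

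The other 7 genes lay between -0.24 and 0.33. Jund was at 0.33 (0.28 to 0.38), Fos at 0.23 (0.08 to 0.38) and Fosl2 at 0.10 (0.06 to 0.15), all with intervals above 0. Egr1 at -0.02 (-0.10 to 0.06) had an interval that included 0, and Jun at -0.05 (-0.09 to -0.01) and Junb at -0.24 (-0.28 to -0.20) had intervals below it. Fosb was at -0.18 (-0.27 to -0.10) on this scale, although its FPKM in MT was 45.5% of that in MB, because the added 1 exceeds both of its values. With a pseudocount of 0.1 or 0.01 the log2 change of Fosb was -0.74 or -1.08.

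All of these values depend on how the 2 libraries are scaled. The median log2 change of the 10739 named genes that reached 1 FPKM in both was -0.23, so values relative to it are higher by that amount. Relative to that median Jund was at 0.56, Fos at 0.45, Fosl2 at 0.33, Egr1 at 0.21, Jun at 0.18, Fosb at 0.04, Junb at -0.01, Myc at -1.36 and Fosl1 at -3.32. The median of the 9 genes was -0.05 as deposited, the value of Jun, beside -0.20 over all 11758 genes. Scaled to a common total over all entries, which was 650275 FPKM in MB and 337279 in MT (named genes of at least 300 bp held 422233 and 284116 of it, the rest being shorter named genes and assembled units), 6 of the 9 genes would be called higher in MT and 54.7% of all named genes with them, and the calls of Fosl1 and Myc as lower would stay. No call of a higher member is therefore made here.

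**Figure D3:**
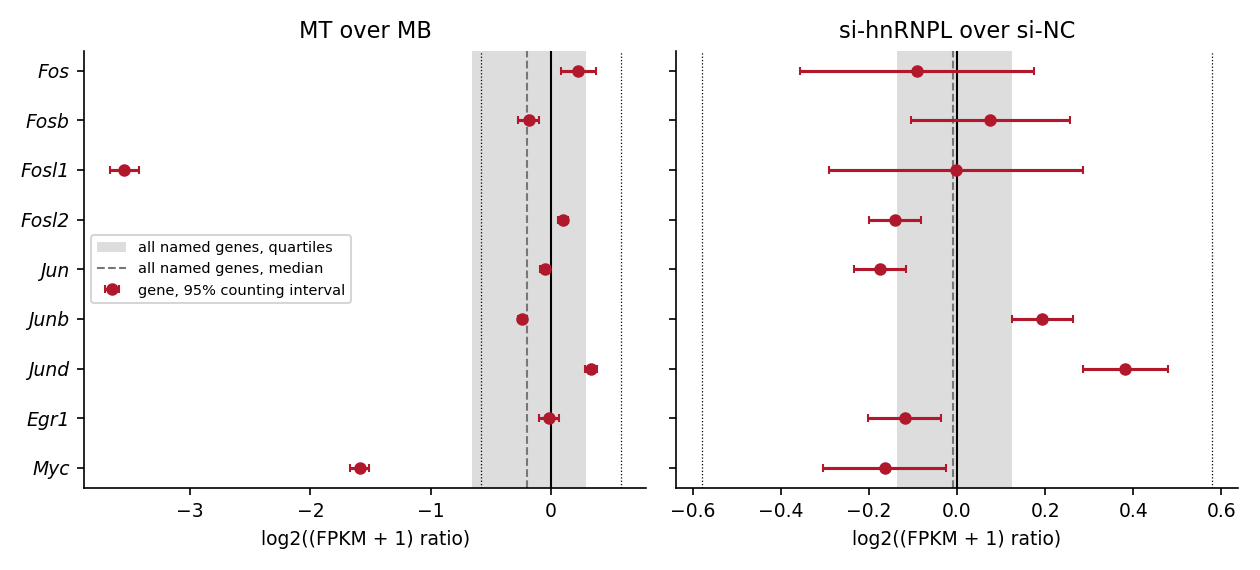
log2((FPKM + 1) ratio) of the 9 genes for MT over MB (left) and si-hnRNPL over si-NC (right), with bars for the counting interval, dotted lines at the call threshold of 0.58 in either direction, and the quartiles (gray) and median (dashed) of all named genes. Fosl1 (-3.55) and Myc (-1.59) lie far below the gray band on the left, and all 9 genes lie inside the dotted lines on the right.

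Besides genes, the total RNA tables list 36780 transcript units without a symbol, assembled by the authors, and some lie within introns of the members. A set of 4 lay inside Fosl1 and 6 inside Fosl2, all with 0 bases in the annotated exons of these genes, and none lay inside the other 7. Their strand is not given. Units inside 1 gene lie in sequence along it and may be pieces of the same transcript, which was not tested. Their counts are therefore not counts of independent units. In Fosl1 the units were XLOC_031466, at 4.77 FPKM in MB and 0.735 in MT, XLOC_031467, at 4.47 and 0.644, and a further pair at 4.03 and 3.87 in MB and 0.542 and 0.633 in MT. All 4 were called lower in MT, by 1.58 to 1.73 on the log2 scale, where 3.09% of the 36780 units were lower and 19.8% higher. Those shares are over all units, with no minimum level. With the added 1, a unit far under 1 FPKM in both libraries cannot be called. The shares are thus not a like background for units of a few FPKM, here, in Fosl2 or near Myc. The 4 Fosl1 units rested on 110 to 184 fragments each in MB and on 19 to 26 in MT. Their levels in MT are thus loosely measured. The gene's own entry was at -3.55, but the added 1 understates changes at such low levels, so no difference in size is read. A further unit, XLOC_031474, 18013 bases from the gene, was at 4.28 FPKM in MB and 1.20 in MT, and it was the only other one called among 14 units within 100 kb of Fosl1, named after its value was seen.

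Fosl2 showed a difference in the other direction. The 6 units in its introns were all above 0 on the log2 scale, at 0.41 to 1.07, while the gene's own entry was at 0.10. Of the 6, which are not taken as independent, 4 were called higher. Over all units, with no minimum level, 19.8% were called higher. The pair with the highest FPKM in MT was XLOC_046489, at 1.76 in MB (0.821 to 2.71) and 4.80 in MT (3.30 to 6.30), and XLOC_046488, at 2.04 (1.33 to 2.75) and 4.19 (3.20 to 5.18). Units in general had a median log2 change of 0.24, and 79.3% of all 36780 were above 0. The rises in Fosl2 were thus in the common direction and the falls in Fosl1 were against it. The nuclear RNAs Malat1, Neat1 and Xist also rose in MT, by log2 changes of 1.96, 1.70 and 1.40, and a part of nuclear RNA content in these values was not tested.

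Within 100 kb of Myc lay 15 units, of which 12 were below 0 and 1 was called lower, beside 3.09% of all units. That one, XLOC_020889, was at 2.41 FPKM in MB (38.5 fragments) and 1.06 in MT, a log2 change of -0.73 (-1.21 to -0.25). XLOC_020884, with the highest FPKM of the group in MT, was at 2.27 and 2.99, and its interval (-0.61 to 1.18) included 0. All of these units but XLOC_020876, 2463 bases from Myc and named after its position was seen, lay close together, 50241 to 67710 bases from Myc. Whether they are pieces of 1 transcript was not tested, so their number is not a number of independent units. Single units here rested on few fragments, 9 to 121 in MB. Near the other 6 genes lay 2 units (Fos), 11 (Fosb), 15 (Jun), 7 (Junb), 8 (Jund) and 10 (Egr1), of which 0 or 1 a gene was called higher and 0 to 2 lower. With 2 to 15 units a gene, nothing is read from these counts.

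**Figure D4:**
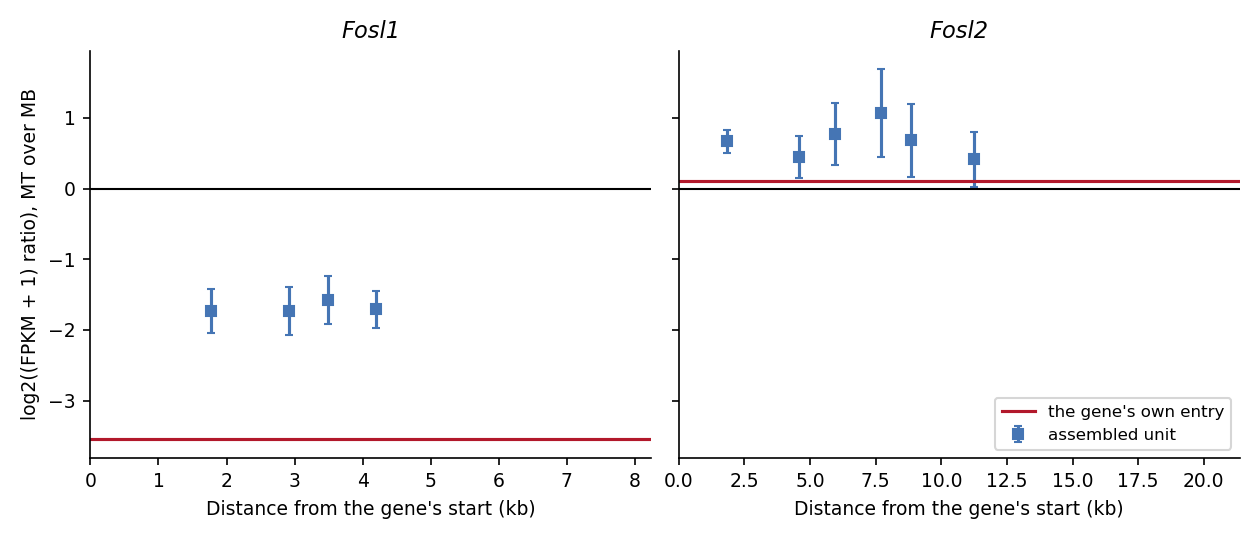
log2((FPKM + 1) ratio) of MT over MB for assembled units inside Fosl1 (left) and Fosl2 (right), by distance in kb from the gene's start as deposited, with bars for the counting interval and a red line for the gene's own entry. The Fosl1 units lie at -1.73 to -1.58, with the red line at -3.55, and the Fosl2 units at 0.41 to 1.07, with the red line at 0.10.

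The genes around the 9 in the pathway were read in the same way, from lists of inputs, partners and targets. Their counts stand against 28.5% of all named genes lower and 15.4% higher as deposited, and against 7.03% to 18.6% lower and 22.7% to 54.7% higher under the other scalings. Of 16 genes of the serum response and MAP kinase route, 4 were lower in MT and 0 higher, with a median log2 change of -0.20, a share near the background and the same median as all named genes. Elk3, an SRF partner of the ETS family, was at -1.18 and Mkl1, an actin-controlled SRF coactivator, at -1.06. Srf itself (-0.94) and the kinase gene Mapk14 (-0.90) were the other two, named after their values were seen. At the upper end stood Mapk8, which encodes the kinase JNK1, at 0.27, and Elk1 at 0.24. With a common total over all entries 9 of the 16 would be higher and 0 lower, again near the background of 54.7%.

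Among 17 other immediate early genes above the minimum level, 8 were lower and 1 higher, with a median of -0.57. Nr4a2, an orphan nuclear receptor, was at -2.49 (from 9.91 FPKM to 0.943) and Ier3, an immediate early regulator of survival, at -1.75. Btg2, an antiproliferative gene, was the higher one, at 0.72, and Klf4, a zinc finger factor, was at 0.40. Under the 4 other scalings 3 to 6 of these genes were called lower and 3 to 6 higher, so the list had no fixed balance. Of 7 other bZIP genes whose products pair with Fos or Jun proteins or compete with them, 2 were lower, Maff (-1.12) and Atf3 (-1.01), and 0 were higher. Atf2 was at 0.12 and Atf7 at 0.01, and with a common total over all entries 3 of the 7 would be higher and 0 lower.

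Genes known as targets of AP-1 were mostly lower where they reached the minimum level. The list held 14 genes, and 10 reached that level, of which 8 were lower and 1 higher. Their median was -1.77, and 6 or 7 were lower under the other scalings. Plaur, the urokinase receptor, was at -3.96 (from 70.0 FPKM to 3.55) and Hmga1, a chromatin protein, at -3.19. Lif, a cytokine, lay just past the threshold at 0.58, with 0.800 and 1.69 FPKM, and Plau, urokinase itself, was at 0.05. Of 6 genes that hold Egr1 in check or are its targets, Nab2 (-0.76) and Pdgfa (-0.65) were lower as deposited and 0 were higher, whereas under the other scalings 0 were lower and 0 to 2 higher. Sphk1 was at 0.33 and Egr2 at 0.14.

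Myc's dimerization network differed gene by gene. Of 11 genes, 3 were higher and 1 lower, with a median of 0.06, and 3 to 7 were higher under the other scalings, near the shares of all named genes. Mycl, a Myc paralog, rose from 1.88 to 17.7 FPKM (log2 change 2.70). Mxd4, which encodes a Max partner that represses Myc targets, was at 1.08, and Mxd1, another of these repressors, was at 0.99 and is named after its value was seen. Mxd3 of the same family went the other way, at -2.25 (from 30.4 FPKM to 5.59), and Max, the shared partner, was at -0.57. All 20 of the Myc target genes were lower in MT as deposited, with a median of -1.41 and a range from -2.35 to -0.69, and 17 of them were after centring and 9, 13 and 15 under the other scalings. Shmt1, of one-carbon metabolism, was at -2.35 and Srm, the spermidine synthase, at -2.29. The 5 proliferation markers were all lower in MT as well. Their part in the values of the AP-1 and Myc targets was not tested.

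**Figure D5:**
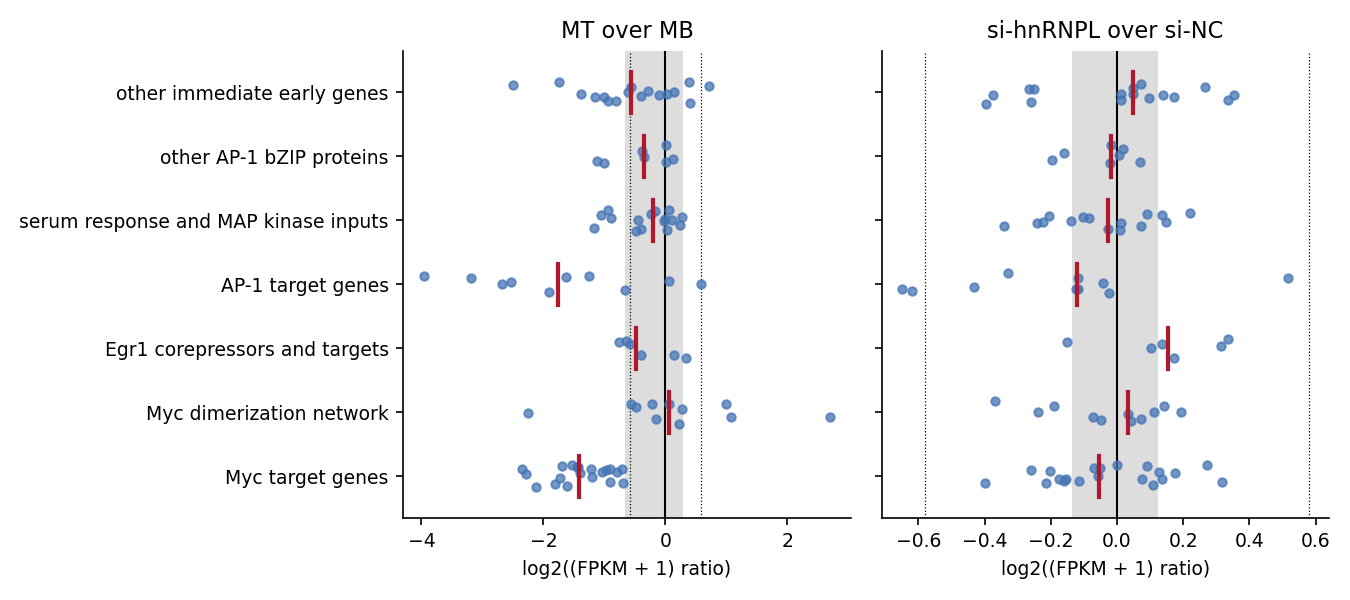
log2((FPKM + 1) ratio) of the genes of 7 pathway lists for MT over MB (left) and si-hnRNPL over si-NC (right), 1 point per gene that reached 1 FPKM in 1 or both libraries, a red mark at each list's median, the quartiles of all named genes in gray and dotted lines at 0.58 in either direction. On the left the Myc targets (median -1.41) and AP-1 targets (-1.77) lie left of the gray band as deposited, where 9 to 17 and 6 to 7 genes are called lower under the other scalings, and on the right 2 points lie beyond the dotted lines.

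The comparison of si-hnRNPL with si-NC asks whether lowering hnRNPL alters these genes in MT. None of the 9 genes was called, 0 higher and 0 lower, in a pair of libraries in which 1.44% of 11369 named genes were higher and 0.888% lower. Their median log2 change was -0.09, the value of Fos (-0.36 to 0.17), beside -0.01 for all named genes, whose SD was 0.235 among those that reached 1 FPKM on both sides. The RNA of the siRNA target was itself only 0.14 lower, on the log2 scale, in the library labelled si-hnRNPL. The study examined the knockdown by Western blot, and protein is not measured in these libraries. With 1 library a side, changes under the threshold cannot be told apart from differences between cultures.

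Jund had the largest change of the 9, at 0.38 (0.29 to 0.48), from 18.9 to 24.98 FPKM, and 4.37% of genes had a higher log2 change. Junb was at 0.19 (0.12 to 0.26). Jun was at -0.18 (-0.23 to -0.12), Myc at -0.16 (-0.30 to -0.02), Fosl2 at -0.14 (-0.20 to -0.08) and Egr1 at -0.12 (-0.20 to -0.04). The intervals of these 6 excluded 0, and those of Fosb (0.08), Fosl1 (-0.002) and Fos (-0.09) did not. In this pair the log2 change fell with exon length (Spearman rho -0.40) and climbed with GC content (0.41) across 10030 genes, a description over genes of 2 libraries. After that trend was taken out, Junb was at 0.01 and Jund at 0.25, while Jun and Myc were both at -0.25. The distance between Jund and Jun was thus present with and without the trend, and that of Junb from 0 was not.

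The partners and targets gave few calls. In the lists of other immediate early genes, other bZIP genes, serum and MAP kinase inputs, Egr1 partners and targets, Myc network and Myc targets, 0 genes were called in either direction. Nr4a1 (0.35) and Egr2 (0.34) stood at the upper end of the immediate early list and Nr4a2 (-0.40) and Klf10 (-0.37) at the lower. Of the AP-1 targets 2 of 10 were lower, where 0.888% of all named genes were. They were Cd44 (-0.65, from 196 FPKM to 125), a hyaluronan receptor, and Ccnd1 (-0.62, from 31.9 FPKM to 20.4), cyclin D1. Both lay near the threshold, and the trend with exon length and GC content was not taken out of their values. Hmox1, heme oxygenase, was at 0.52.

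In the remaining lists the outermost genes all stayed within the threshold. Myc targets ranged from -0.40 (Ccnd2) and -0.26 (Hspd1) to 0.27 (Ldha) and 0.32 (Odc1), and the Myc network from -0.37 (Mycl) and -0.24 (Mxd3) to 0.14 (Mxd4) and 0.19 (Mlx). Among inputs the ends were Mkl2 (-0.34), Rps6ka3 (-0.24), Mapk3 (0.15) and Map2k1 (0.22), and among bZIP genes Atf7 (-0.20), Atf2 (-0.16), Atf3 (0.02) and Mafk (0.07). Egr2 is on the Egr1 list as well, where Nab2 was at 0.31 and Nab1 at -0.15. Of the 7 muscle markers checked, Ckm (0.71) was called higher and the other 6 were not called, with a median of 0.43 and a range from -0.40 (Myf5) to 0.71. Of the 5 proliferation markers 2 were lower, Mki67 (-0.62) and Top2a (-0.60), and all 5 lay between -0.62 and -0.31. The part of either group in the values of Cd44 and Ccnd1 was not tested.

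For each member that reached 1 FPKM in all 4 libraries, the named gene with the most similar levels was sought by Euclidean distance over the 4 log2(FPKM + 1) values, among 22114 genes. Myc lay nearest to Haus1, an augmin subunit of the mitotic spindle (distance 0.165), at 28.2, 8.89, 15.9 and 16.4 FPKM in MB, MT, si-NC and si-hnRNPL. The nearest gene to Fosl1 was 1700012B09Rik (0.384), at 38.3, 2.62, 2.50 and 3.95 FPKM. Nearest to the others were Nbea for Fos (0.0477), Arih1 for Fosl2 (0.105), Bnip3l for Jun (0.158), Rbbp4 for Junb (0.161), Hagh for Jund (0.188) and Chst12 for Egr1 (0.351). With 4 values a gene, such a match describes the levels only.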

How the data were processed

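The series holds 1 library per condition, from total RNA (MB, MT) or polyA RNA (si-NC, si-hnRNPL). The authors trimmed reads, dropped any under 36 bp, aligned to mm9 by TopHat (v2.0.13), estimated abundance with Cufflinks (v2.1.1) and deposited FPKM with 95% intervals. The total RNA tables also hold units assembled by the authors. The values are not counts, so no count test was run.

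The 9 genes, the pathway lists and the alternatives were chosen with earlier results of these data known. Changes were computed as log2((FPKM + 1) ratio) and called at 0.58. Intervals of changes add the half-widths of both FPKM intervals in quadrature, on the log scale. Implied fragments are (2 x FPKM / half-width) squared. The text names the 9 genes, label checks (Hnrnpl, Myog, Ckm, Mki67), at most the 2 largest rises and 2 largest falls of each list, the nearest gene of each member, and the 2 units with the highest FPKM at a member. Outside this rule the text names further muscle and proliferation markers, 3 nuclear RNAs, genes that overlap a member, and genes or units said to be named after their values were seen. Gene models came from GENCODE vM1 on mm9, and the loci of 19225 of 19568 protein-coding symbols overlapped theirs. Promoters came from RefSeq on GRCm38.p6, a different build. Protein sequences were not used here. The trend with exon length and GC content was removed by subtracting the median of 20 bins of each, over 3 rounds. Alternatives were pseudocounts of 0.1 and 0.01, 4 scalings, a 2-fold threshold, calls only where the interval excludes 0, summed entries of a symbol and a filter on low values. Applying the scalings to lists and family sums was chosen after seeing the data. Python 3.11.15, numpy 2.4.6, pandas 2.3.3 and matplotlib 3.10.9 were used, and the calculation was tested on simulated data.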

Additional observations from a re-analysis of the deposited data

How the results depend on the processing

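No paired analysis was possible because each condition had 1 library, and for the same reason no replicate could be left out. The median log2 change of the 9 genes for MT over MB, -0.05 as deposited, was 0.18 after centring on named genes, 0.85 with a common total over all entries, 0.50 with a common total over named genes of at least 300 bp and 0.30 with a common upper quartile. The number of the 9 genes called higher in MT, 0 as deposited, was 6, 3 and 1 under the last 3 of these scalings. The cause was not tested. The 2 genes called lower and the absence of calls between the siRNA libraries kept to their side of the threshold in the settings tried, apart from the added call of Fosb as lower with smaller pseudocounts. Single libraries, an unstated strand setting and 23.4 to 84 implied fragments for Fosb limit these values, and the intervals hold no variation between cultures.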
